A study of Mus musculus with 2 samples.

Results

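Bulge stem cells, the hair follicle stem cells (HF-SCs) that carry Cd34 and Krt24, were examined in dissociated mouse back skin. They were chosen cell by cell from raw counts of unique molecular identifiers (UMIs, 1 per captured RNA molecule). A cell had to hold at least 20 UMIs of the basal keratins Krt5 and Krt14 together and at least 3 UMIs of Cd34 and Krt24 together. Cells with 3 or more UMIs of Krt75, Sncg and Fgf18, with 20 or more of Krt79, Defb6 and Cst6, or with 20 or more of Col1a1 and Col1a2 were left out. In all, 759 of 7564 kept cells met the rule, 342 in the control library and 417 in the induced library. The 12 genes of the rule were used to choose the cells, so their levels are not results.

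The bulge is the lowest permanent part of the resting hair follicle, where HF-SCs lie against the basement membrane and the club hair, and stay quiescent through telogen, the resting phase. A growth phase opens when progenitors in the hair germ (HG) below them, and then the bulge cells themselves, are activated by falling BMP and rising WNT and FGF signals. Bulge cells are known for factors such as Sox9, Lhx2, Nfatc1 and Foxc1, for secreted WNT and BMP inhibitors, and for a niche matrix that anchors other skin cells.

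The microRNA whose induction the study follows is given here with its seed, the bases that pair with target transcripts. The seed was not used in the comparisons below. The mature sequence is from RefSeq, lies at chr1:193507503-193507524 on the minus strand of GRCm38.p6, and has the seed, bases 2 to 8, in capitals.
mmu-miR-205-5p: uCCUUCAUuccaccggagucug

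To ask how induced miR-205 alters skin cells ahead of visible hair growth, the study made 1 10x Genomics library from 1 control mouse and 1 from 1 miR-205 inducible mouse, called induced here. In the induced mouse a pTRE2-miR-205 transgene, made by injection into FVB mice, was driven by Krt14-rtTA, a doxycycline-dependent activator placed in basal keratinocytes and so in bulge cells. Both mice carried the K14-H2BGFP nuclear reporter, were labelled C57BL/6, were of the same sex and were taken at postnatal day 53, and the study describes its controls as littermates. The induced mouse received doxycycline chow for the last 4 days. For the control the labels disagree, since the extraction protocol has both mice on doxycycline while the treatment label of the control reads untreated, so an effect of doxycycline itself cannot be told apart from the induction. Skin was digested with collagenase and then trypsin. Which of the transgenes other than the reporter the control carried is not stated for these samples, and the transgene itself was not measured. Live cells were sorted so that epidermal, follicle and dermal cells entered at 3:5:2, and both libraries were run on the same chip.

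With 1 library per group there was no replicate, no test and no measure of the spread between mice. A difference between the libraries could belong to the pair of mice as well as to the induction, and these cannot be told apart. The control library held 55465594 UMIs and the induced library 49733560. Bulge cells of the control held a median of 9507.5 UMIs, 2405 genes and 5.83% mitochondrial UMIs, and those of the induced library 9537 UMIs, 2441 genes and 5.89%. Depth therefore hardly differed between the libraries in these cells. Of the barcodes, 11 occurred in both libraries, of which 3 belonged to a bulge cell in either and none to a bulge cell in both.

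In the sorted mix bulge cells made up 8.69% of kept control cells (95% exact binomial interval 7.83 to 9.61) and 11.5% of kept induced cells (10.5 to 12.6). Among cells that passed the Krt5 and Krt14 limit the shares were 10.7% (9.68 to 11.9) and 15.5% (14.2 to 17.0). The sort set the follicle fraction by hand, so these shares describe the 2 sorted suspensions and not the skin. When every cell was thinned to 5000 UMIs before the rule was applied, the shares were 7.35% and 10.4%. Both Cd34 and Krt24 were found in 200 control and 248 induced bulge cells, and Cd34 without Krt24 in 138 and 163. The rule excluded 95 control and 230 induced cells by Krt75, Sncg and Fgf18 alone, so cells that met every other limit were left out in unequal number. Cells just inside the Cd34 and Krt24 limit, with 3 UMIs, numbered 42 and 32 and held Krt15 at 7986 CPM, UMIs of the gene per 1000000 UMIs of the summed cells, in the control library and 7958 CPM in the induced library. Cells just outside it, with 2 UMIs, numbered 44 and 56 and held Krt15 at 6507 and 6442 CPM.

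The label was checked on the markers that the rule did not use. Krt15, a keratin of the bulge and basal layer, was at 8660 CPM in control bulge cells and 3354 CPM in the other control keratinocytes, and at 10638 and 4295 CPM in the induced library. Sfrp1, a secreted WNT inhibitor of the bulge, was at 240 CPM in control bulge cells against 13.1 CPM in the other keratinocytes, and at 350 against 31.0 CPM in the induced library. Both markers were higher in the chosen cells in both libraries. Krt15 was higher still, at 11157 and 13526 CPM, in cells with 3 or more UMIs of Krt75, Sncg and Fgf18, a set that overlaps the inner bulge. The chosen cells also held Krt6a, a keratin of the inner bulge, at 3052 CPM in the control and 2441 CPM in the induced library. The rule thus takes a range of 2 genes and does not mark off a layer of the bulge.

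Of 5964 genes with at least 100 UMIs in bulge cells, outside the rule, 454 (7.61%) were at least 2-fold higher than in the other keratinocytes in both libraries and 172 (2.88%) at least 2-fold lower. The other keratinocytes, 2844 control and 2265 induced cells, were a mix of epidermis and follicle and were deeper, with medians of 13179.5 and 13608 UMIs. They included the 95 control and 230 induced cells that met every bulge limit except that on Krt75, Sncg and Fgf18. The part of this unequal share in the values of the other keratinocytes was not tested. Because the bulge cells were chosen by counts of Cd34 and Krt24, the counts of 2-fold genes describe the chosen cells and were not tested.

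The 20 genes that stood highest over the other keratinocytes included Sfrp1, given above. Among them were Col6a1, Col6a2 and Col8a2, collagen chains, and Ltbp2 and Adamtsl4, proteins of microfibrils. Also among them were Myoc, an extracellular glycoprotein, Igfbp5, an IGF-binding protein, Dkk3 of the Dickkopf family, and the BMP antagonist Grem1. Grem1 was at 170 CPM in control bulge cells against 11.1 CPM in the others, and at 312 against 32.5 CPM in the induced library. Dkk3 was at 112 against 9.58 CPM in the control and at 142 against 13.0 CPM in the induced library. Both secreted inhibitors were thus above the other keratinocytes in each mouse.

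The remaining leaders follow. S100a4, a calcium-binding protein, was at 1883 CPM against 78.3 CPM in the control and at 979 against 62.0 CPM in the induced library. Trpv4, a cation channel, was at 32.4 against 1.87 CPM in the control and at 41.8 against 3.36 CPM in the induced library. Chat, which makes acetylcholine, was at 31.5 against 2.55 CPM in the control and at 56.5 against 7.18 CPM in the induced library. Il31ra, a cytokine receptor subunit, Tgm5, a transglutaminase, Dab2, an endocytic adaptor, Plpp1, a lipid phosphatase, Kctd4, Pdzrn4 and Wfdc3 completed the 20 genes.

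These genes were next set against 2 follicle sets that the rule itself keeps apart from the bulge cells. They were picked for being high in bulge cells, so the counts are descriptions. Of the 137 control and 295 induced cells with Krt75, Sncg or Fgf18, 95 and 230 met every other limit of the bulge rule. The Lgr5 set, by contrast, held only cells below the Cd34 and Krt24 limit, so cells with 3 or more Cd34 UMIs were left out. The part of that choice in the distance between the Lgr5 set and the bulge cells was not tested. Set against the 137 control and 295 induced cells with Krt75, Sncg or Fgf18, 18 of the 20 genes were higher in bulge cells in both libraries, but 6 by at least 2-fold in both. Over all 5964 genes the same counts were 2108 and 108. Chat, at 42.2 and 62.5 CPM in the Krt75 set, and Plpp1, at 46.8 and 38.9 CPM, were the others. Set against the 58 control and 54 induced cells with Lgr5 and no Krt24, a set that HG cells would fall into, all 20 were higher and 16 by at least 2-fold in both libraries. Over all 5964 genes 2145 were higher and 270 by at least 2-fold. The Lgr5 set held fewer cells than the Krt75 set, and counting noise adds to such counts. The counts for the 2 sets are thus not on equal footing. Grem1 was at 4.97 and 3.78 CPM in the Lgr5 set, and Dkk3 at 57.1 and 70.6 CPM.

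**Figure D1:**
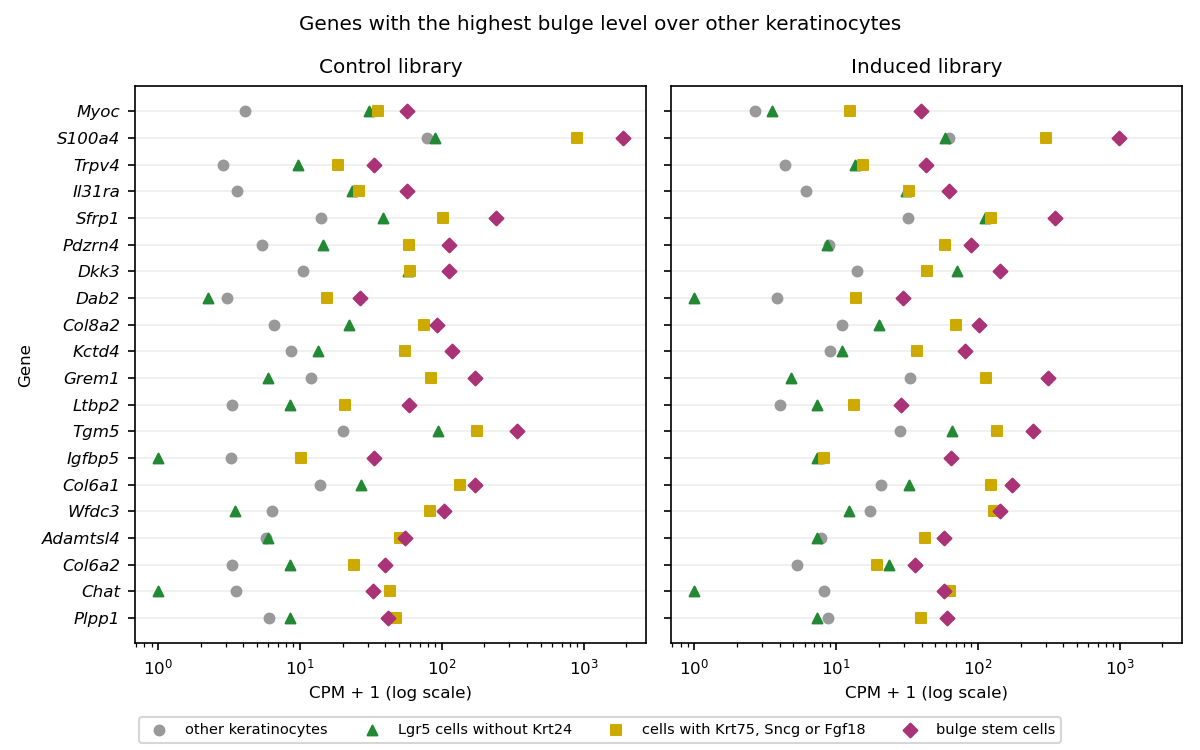
Level in CPM + 1 (log axis) of the 20 genes highest in bulge stem cells over other keratinocytes, in the control library (left) and the induced library (right), with 1 summed value per cell set and library. Bulge stem cells (diamonds) lie right of other keratinocytes (circles) for every gene, an order the genes were picked for. Cells with Krt75, Sncg or Fgf18 (squares) lie nearest to the bulge cells for all 20 genes in the control library and for 18 in the induced library. Of the cells behind the squares, 95 of 137 control and 230 of 295 induced cells met every other limit of the bulge rule.

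The HF-SC transcription factors were largely level between the mice. Of 5964 genes, 338 (5.67%) were at least 1.5-fold higher in the induced bulge cells and 219 (3.67%) at least 1.5-fold lower, so that 60.7% of the genes past the threshold were higher. With library totals replaced by a median-of-ratios size factor that share was 49.4%, and with at least 400 UMIs per gene it was 47.5%, so the balance of directions is not a result. Of 20 measured factors, 3 were 1.5-fold higher, 1 was 1.5-fold lower, and the median log2 ratio of induced over control was 0.04 beside 0.05 over all genes. Of the 20, 9 lay at least 2-fold above the other keratinocytes in both libraries.

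Sox9, which specifies and maintains HF-SCs, was at 942 CPM in control and 986 CPM in induced bulge cells, a log2 ratio of 0.07 (95% counting interval 0.00 to 0.13). Lhx2, a LIM homeodomain factor of the bulge, was at 209 and 247 CPM (0.24, interval 0.10 to 0.38). Nfatc1, a factor of stem cell quiescence, was at 146 and 121 CPM (−0.27, −0.46 to −0.09). These 3 identity factors differed by little. Foxc1, another quiescence factor, was at 83.6 CPM in the control and 110 CPM in the induced library (0.39). Tbx1, linked to HF-SC self-renewal, was at 56.1 and 111 CPM (0.99, 0.74 to 1.24). Hes1, a repressor downstream of Notch, was at 37.0 and 84.3 CPM (1.18, 0.89 to 1.49). Tbx1 and Hes1, with the homeobox gene Barx2 at 65.7 and 99.3 CPM, were the factors past 1.5-fold on the higher side. Gli2, an effector of Hedgehog signalling, was the 1 on the lower side, at 18.5 and 10.6 CPM, from 64 and 44 UMIs. The remaining 12 factors, among them Runx1, Klf5, Trp63 and Nfib, lay between −0.44 and 0.58 on the log2 scale, with Hopx, a homeodomain-only protein of quiescent stem cells, highest at 266 and 398 CPM.

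Of 22 surface and niche proteins, 6 were at least 1.5-fold higher in the induced bulge cells and none lower, with a median log2 ratio of 0.10. Timp3, an inhibitor of matrix metalloproteinases, was at 57.3 CPM in the control and 183 CPM in the induced library (log2 ratio 1.67, 1.44 to 1.91). Egfl6, a basement membrane protein of the upper bulge, was at 64.8 and 115 CPM (0.82, 0.59 to 1.06). Cd200, a surface protein with an immunoregulatory role, was at 93.8 and 143 CPM (0.61, 0.42 to 0.81). Pthlh, a paracrine hormone, Igfbp5 and the matrix protein Aspn were the others, with log2 ratios of 1.35, 0.97 and 0.74. The 5 cells highest in Pthlh held 39% of its control UMIs, so few cells weighed on it. The hemidesmosome collagen Col17a1 was level, at 1384 and 1337 CPM, as was the matricellular protein Postn, at 1200 and 1205 CPM. Lgr5, a receptor for R-spondins, was at 93.8 CPM in the control and 69.6 CPM in the induced library (−0.43, −0.66 to −0.20).

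The 12 lowest log2 ratios in bulge cells belonged to genes of varied function. Thbs1, a matricellular protein, was at 2600 CPM in control bulge cells and 735 CPM in induced ones (log2 ratio −1.82, −1.88 to −1.76). Serpinb2, an inhibitor of plasminogen activators, was at 2192 and 745 CPM (−1.56, −1.62 to −1.50). Plaur, the urokinase receptor, was at 75.8 and 15.2 CPM (−2.31, −2.74 to −1.91). These 3 genes span plasminogen activation and the matrix, and each was higher in the control. Marcksl1, a membrane-bound regulator of actin, was at 187 and 67.4 CPM (−1.47), and Tubb6, a tubulin, at 45.4 and 16.2 CPM (−1.48). Lbh, a transcriptional regulator, was at 47.5 and 14.3 CPM (−1.73), and the kinase Plk2 at 96.7 and 37.7 CPM (−1.36). Gstm2, a glutathione transferase, had a log2 ratio of −1.64 and Eva1a, linked to autophagy, one of −1.73, and Mgst1, Trim59 and Myadm completed the 12 lowest, at −2.28, −2.02 and −1.89.

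Within the same limits the highest log2 ratios were spread over unrelated functions. Gm8797, a predicted gene, was at 32.7 CPM in the control and 880 CPM in the induced library. Its log2 ratio was 4.74 in bulge cells and 4.59 in the other keratinocytes, so it stood as far apart outside the bulge. Apart from Timp3 and Pthlh, the others described here were Camk2n1, an inhibitor of CaM kinase II (1.61), Igfbp4 (1.43), Cyhr1 (1.38), Pnp of purine salvage (1.32), Stfa3, a cysteine protease inhibitor (1.31), the noncoding RNA Snhg12 (1.30), Stmn1, which destabilises microtubules (1.25), and Socs3, a feedback inhibitor of STAT3 (1.21). Socs3 was at 113 CPM in the control and 261 CPM in the induced library. Igfbp4 was at 21.7 and 58.9 CPM.

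**Figure D2:**
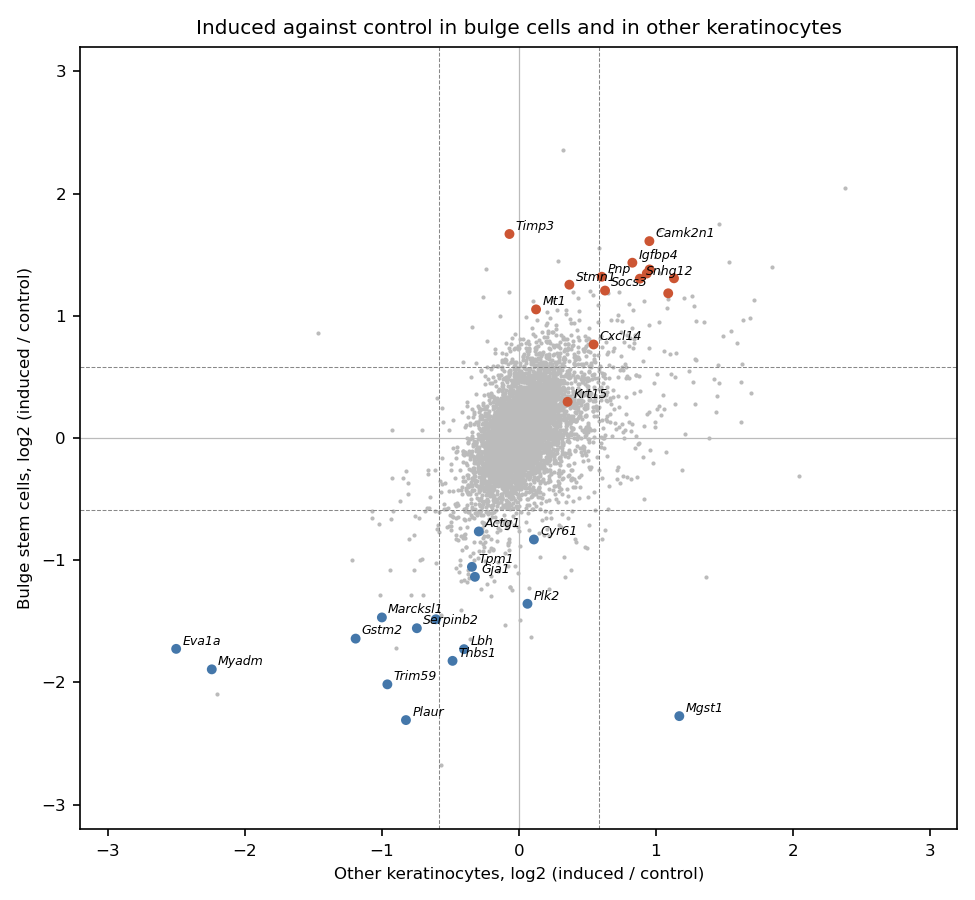
Log2 ratio of induced over control in bulge stem cells (vertical axis) against that in other keratinocytes (horizontal axis), 1 dot per gene, with dashed lines at 1.5-fold; Gm8797, at 4.74 and 4.59, lies outside the axes. Timp3, at 1.67 and −0.07, and Mgst1, at −2.28 and 1.17, lie far from the diagonal.

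Bulge cells were themselves a mixed set, and the mix differed between the mice. Across cells thinned to 5000 UMIs, 328 in the control and 405 in the induced library, the Fano factor (variance over mean, near 1 for counting noise alone) had a median of 1.34 and 1.36 over 1135 genes. The 10 most variable genes were Fos, an immediate early gene, Hspb1 and Hspa1a, chaperones, Cyr61, a YAP target, the keratins Krt16 and Krt17, Fst, an activin inhibitor, Mt1, a metallothionein, Actb and Sprr1a, a cornified envelope gene. Fos had a Fano factor of 43.8 in the control and 46.7 in the induced library, and Cyr61 one of 32.6 and 36.5. These genes varied from cell to cell well beyond counting noise in both mice.

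Several of them went together from cell to cell. Spearman correlations across the thinned cells of a library are given as descriptions, since the cells share a library and a fixed depth. Cyr61 and Actg1, cytoplasmic gamma-actin, had rho 0.60 in the control and 0.56 in the induced library. Krt6a and Actg1 had rho 0.59 and 0.47, and Krt6a and Cyr61 0.50 and 0.55. Krt15 ran the other way, with rho of −0.43 and −0.34 against Actg1 and −0.37 and −0.29 against Cyr61. Against Krt6a it was weaker, with rho of −0.28 and −0.21. Mt1 and its neighbour Mt2, both metallothioneins, formed another pair, with rho 0.59 and 0.71. Bulge cells thus tended to spread between a side with more Krt15 and a side with more Actg1, Cyr61 and, less clearly, Krt6a.

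The mice differed in where their cells lay on this spread, read here by Krt6a alone. At equal depth Krt6a had a median of 11 UMIs in control cells and of 7 in induced ones. Krt6a took less than 0.2% of the UMIs in 161 of 342 control cells (47.1%, 41.7 to 52.5) and in 262 of 417 induced cells (62.8%, 58.0 to 67.5). At 5000 UMIs per cell the shares with fewer than 10 Krt6a UMIs were 46.0% and 58.5%. The limit of 0.2% was set after the values were seen and divides a continuous range, with 46 control and 64 induced cells between 0.15% and 0.25%. The shares again describe sorted suspensions. Since Krt6a goes with many of the genes described here, several groups of genes are given below on both sides of this limit as well as over all bulge cells. The median of the HF-SC factors, for example, was −0.08 below the limit and 0.21 above it. Such a split does not hold Krt6a level fixed, and the part of Krt6a level in the differences between the mice was not tested.

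Per cell the control and induced ranges overlapped for every gene plotted. Actg1 had a thinned median of 55 UMIs in control and 23 in induced bulge cells, with 10th to 90th percentiles of 12 to 109 and 8 to 77.2. Cyr61 had medians of 23 and 5 UMIs, and Thbs1 medians of 5 and 0. For each of the 3 genes the induced library was lower at both the median and the 90th percentile. In the other direction Krt15 had medians of 39 and 50, the chemokine Cxcl14 14 and 25, and Mt1 3.5 and 12.

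**Figure D3:**
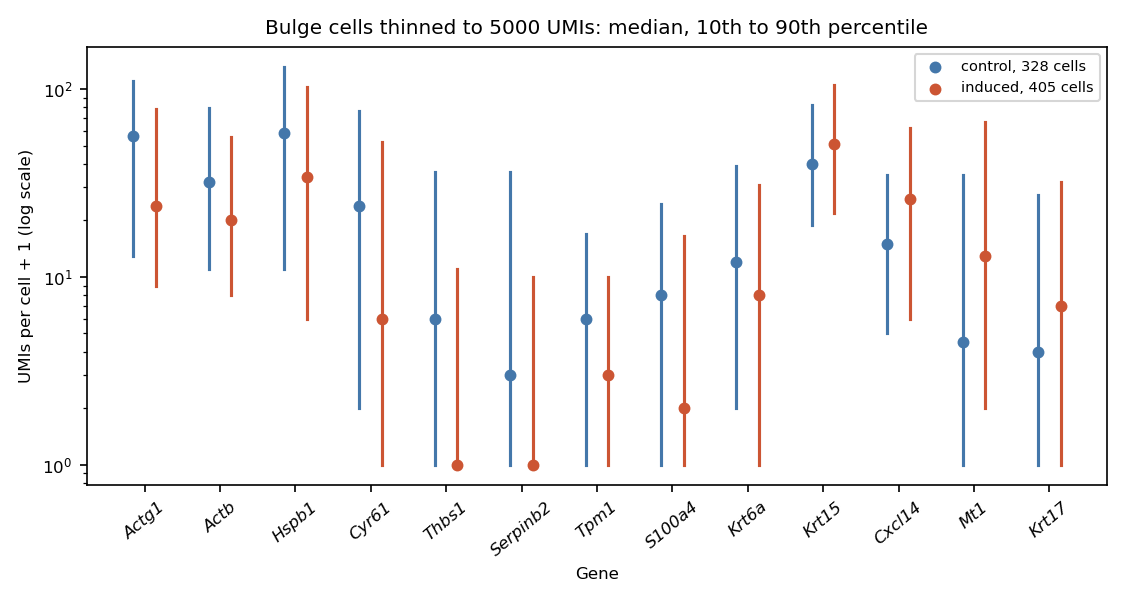
UMIs per bulge cell + 1 (log axis) after thinning to 5000 UMIs, with the median (point) and the 10th to 90th percentile (line) over 328 control and 405 induced cells; cells are not replicates. The ranges of the libraries overlap for all 13 genes, while the Actg1 medians of 55 and 23 and the Cyr61 medians of 23 and 5 lie well apart.

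Genes of the actin cytoskeleton leaned lower in the induced bulge cells. Of 44 actin, contractility and adherens junction genes, 36 had a log2 ratio below 0 and 2 were 1.5-fold lower, with none 1.5-fold higher. The list median was −0.19 (−0.14 in the other keratinocytes). The same 36 lay below the median of all genes, 0.05. Actg1 was at 12321 CPM in the control and 7254 CPM in the induced library (−0.76, −0.79 to −0.74). Tpm1, a tropomyosin that coats actin filaments, was at 1483 and 714 CPM (−1.05, −1.12 to −0.99). At the upper end Tmsb4x, which sequesters actin monomers, was at 4300 and 5365 CPM (0.32), and Actr2 of the Arp2/3 complex at 79.9 and 89.1 CPM (0.16). Below 0.2% Krt6a the list median was −0.05 with 28 of 44 genes below 0, and at or above it −0.18 with 36 of 44. Actg1 was at −0.61 and −0.60 on the 2 sides and Tpm1 at −0.92 and −0.91, so both were lower in induced cells on either side of the limit.

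Actb, Actn1, Actn4, Ctnna1, Rock2 and Piezo1, which act in this system, are genes the study takes up as targets of miR-205. Actb was at 8407 CPM in control and 5776 CPM in induced bulge cells (−0.54, −0.57 to −0.52), against −0.29 in the other keratinocytes. Actn4, an actin crosslinker, was at 380 and 287 CPM (−0.40, other keratinocytes −0.24). Piezo1, a mechanosensitive channel, was at 63.4 and 48.8 CPM (−0.38, interval −0.66 to −0.09, other keratinocytes −0.01). All 3 lay below 0 by more than counting error. Ctnna1, which links cadherins to actin, had a log2 ratio of −0.30, the kinase Rock2 −0.24 and Actn1 −0.14, against −0.12, −0.34 and 0.23 in the other keratinocytes. None of the 6 reached 1.5-fold.

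Few genes of the adhesion lists were past 1.5-fold. Of 22 integrin and focal adhesion genes, 4 were 1.5-fold lower (Vcl, Zyx, Pdlim5 and Pdlim7, all actin-linked adaptors) and none higher, with a median of −0.10 beside −0.23 in the other keratinocytes. Vcl, vinculin, was at 124 CPM in the control and 73.7 CPM in the induced library (−0.76, −0.97 to −0.54). Of 17 desmosome, tight and gap junction genes, 3 were 1.5-fold lower, Cldn1 and Gja1 among them, with a median of −0.11 beside −0.23 in the other keratinocytes. Gja1, the gap junction protein connexin 43, was at 412 and 187 CPM (−1.14, −1.26 to −1.01), and it was at −0.94 and −1.05 below and above the Krt6a limit. Of 24 hemidesmosome and basement membrane genes, 4 were 1.5-fold higher (Lama5, Hspg2, Egfl6 and Fbln1), Thbs1 was lower, 14 lay above 0, and the median was 0.04. Below the median of all genes, 0.05, lay 12 of them. Fbln1, a fibulin of the basement membrane, was at 74.95 and 127 CPM (0.76), whereas Lama3, a laminin chain, was at 183 and 126 CPM (−0.53).

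YAP targets, genes that respond to tension and cell contact, were split. Of 18, 4 were 1.5-fold lower (Cyr61, Amotl2, F3 and Wwtr1) and 2 higher (Ctgf and Nt5e), with a median of −0.32 beside 0.01 in the other keratinocytes. Cyr61 was at 6433 CPM in the control and 3618 CPM in the induced library (−0.83, −0.86 to −0.80). Its partner in the same family, Ctgf, was at 262 and 548 CPM (1.06, 0.95 to 1.18). The 2 CCN-family genes therefore lay on opposite sides. Amotl2, an angiomotin, was at 50.1 and 22.7 CPM (−1.14), and F3, tissue factor, at 275 and 120 CPM (−1.19, with 46% of its control UMIs in 5 cells). The list median was −0.24 over 14 genes below the Krt6a limit and 0.13 over 14 genes above it. The 14 genes need not be the same on the 2 sides, and a dependence on Krt6a level was not tested. Cyr61 was at −1.20 and −0.34 on the 2 sides.

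**Figure D4:**
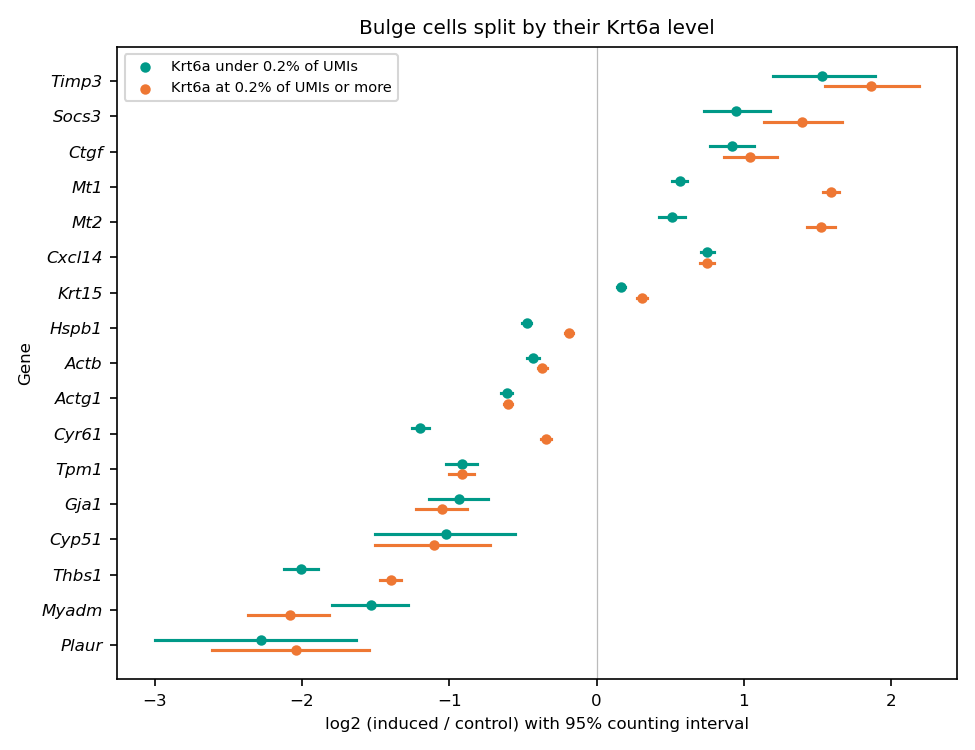
Log2 ratio of induced over control with 95% counting interval for 17 genes in bulge cells with Krt6a under 0.2% of UMIs (161 control and 262 induced cells) and at 0.2% or more (181 and 155 cells). The 17 genes were picked by hand. Each of them keeps its side of 0 on both sides of the limit, with Mt1 at 0.56 and 1.59 and Mt2 at 0.51 and 1.52 the furthest apart. Of the 195 named genes, 21 changed sign from their value over all bulge cells below the limit, and 11 did so at or above it.

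Signals that act on the bulge were next compared. Of 16 WNT genes, 14 had log2 ratios above 0 and 3 were 1.5-fold higher (the receptor Fzd1 and the ligands Wnt4 and Wnt7b) with 1 lower. The median was 0.29 beside 0.33 in the other keratinocytes. Of the 16 genes, 4 lay below the median of all genes, 0.05. Wnt4 was at 42.8 CPM in the control and 88.2 CPM in the induced library (1.04, 0.76 to 1.33). Wnt7b was at 13.0 and 27.1 CPM (1.05, 0.54 to 1.59). Wnt11, the ligand on the lower side, was at 48.6 and 28.7 CPM (−0.76, −1.11 to −0.41). Sfrp1, from the markers above, had a log2 ratio of 0.54, and Tle4, a corepressor of WNT response, one of −0.06. The ligands Wnt4 and Wnt7b and the inhibitor Sfrp1 were thus all higher in the induced cells.

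Of 28 BMP and TGF-beta genes, 4 were 1.5-fold higher (Bmp7, Grem1, Tgfb2 and Ltbp1) and 3 lower (Smad7, Tgfbr2 and Ltbp2), with a median of −0.01. The BMP antagonist Grem1 had a log2 ratio of 0.87 (0.73 to 1.02). Of the latent TGF-beta binding proteins, Ltbp1 was at 10.1 and 22.7 CPM (1.15), and Ltbp2 at 58.2 and 27.5 CPM (−1.08, −1.42 to −0.74). The related pair lay on opposite sides. Tgfbr2, a TGF-beta receptor, was at 40.5 and 26.1 CPM (−0.63). Of 14 FGF and EGFR genes, 4 were 1.5-fold lower (Fgf1, Spry2, Hbegf and Epgn) and 1 higher (Fgfr3), with a median of −0.32 beside 0.00 in the other keratinocytes. Spry2, a feedback inhibitor of FGF signalling, was at 32.1 and 13.8 CPM (−1.22, −1.71 to −0.75). Epgn, an EGFR ligand, was at 51.8 and 21.3 CPM (−1.28), but 5 cells held 59% of its control UMIs. Fgfr3 was at 42.0 and 65.7 CPM (0.64) and the receptor Erbb2 had a log2 ratio of 0.48 (−0.11 to 1.11). Below the Krt6a limit the FGF and EGFR median was −0.46 over 10 genes, and above it 0.04 over 9.

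Of 15 Notch and Hedgehog genes, Hes1 was 1.5-fold higher, Jag1 and Gli2 were 1.5-fold lower, and the median was 0.31. Jag1, a Notch ligand, was at 318 CPM in the control and 207 CPM in the induced library (−0.62, −0.75 to −0.49). Gas1, a Hedgehog co-receptor, was at 159 and 225 CPM (0.51). Ligand and target of the Notch pathway therefore differed in opposite directions.

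Regulators of quiescence and G1 were among the lists that leaned highest. Of 16 genes, 12 lay above 0 and 3 were 1.5-fold higher, Ccnd2, Rb1 and Txnip, with none lower and a median of 0.46 (0.19 in the other keratinocytes). Below the median of all genes, 0.05, lay 4 of the 16. Txnip, an inhibitor of thioredoxin and glucose uptake, was at 55.3 CPM in the control and 117 CPM in the induced library (1.08, 0.84 to 1.34). Ccnd2, a G1 cyclin that promotes entry into the cycle, was at 70.6 and 114 CPM (0.69, 0.47 to 0.92). Rb1, which restrains that entry, was at 26.6 and 41.1 CPM (0.62). The 3 members thus include both a driver and a brake of the cycle. At the lower end Cdk6 had a log2 ratio of −0.40 (−0.84 to 0.03) and Klf6 one of −0.16. The median was 0.15 below the Krt6a limit and 0.59 above it. Of 42 S and G2M genes only 12 reached 100 UMIs, and of these Dut and Stmn1 were 1.5-fold higher, with a median of 0.03. Dut, a dUTPase, was at 39.9 and 64.5 CPM, and Smc4, a condensin subunit, at 60.5 and 49.0 CPM (−0.30). Mki67 was not tested, with 13 and 43 UMIs held by at most 5 cells in each library.

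Cholesterol synthesis was the list with the lowest median. Of 17 genes, 6 were 1.5-fold lower (among them Idi1, Cyp51, Pmvk, Insig1 and Stard4), Dhcr7 was higher, and the median was −0.52 beside −0.06 in the other keratinocytes. Cyp51, lanosterol demethylase, was at 83.3 CPM in the control and 35.8 CPM in the induced library (−1.22, −1.52 to −0.93). Insig1, a sterol-dependent brake on the pathway, was at 67.7 and 34.1 CPM (−0.99). Dhcr7, the last enzyme of the pathway, was at 22.6 and 43.0 CPM (0.92, 0.54 to 1.33), and Sc5d at 22.6 and 26.8 CPM (0.25). The medians on the 2 sides of the Krt6a limit were −0.29 and −0.38, with 12 of 14 and 13 of 15 genes below 0. The list median was thus below 0 on either side of the limit, though by less than over all cells.

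Of 45 nuclear-encoded respiratory chain genes, 38 lay above 0, 1 was 1.5-fold higher (Sdhd, of complex II) and the median was 0.14 beside 0.02 in the other keratinocytes. Against the median of all genes, 0.05, 11 of the 45 were lower. Atp5c1, an ATP synthase subunit, was at 140 and 186 CPM (0.41). The 13 mitochondrially encoded genes had a median of 0.01 and none was past 1.5-fold. Of 22 glycolysis and hypoxia genes, 2 were 1.5-fold lower, the glucose transporter Slc2a1 at 316 and 199 CPM (−0.67) and the peptide hormone Adm at 104 and 44.2 CPM (−1.24), with a median of 0.13. Eno1 and Gpi1, glycolytic enzymes, were at 0.45 and 0.40. Of 10 clock genes, Nr1d1 was 1.5-fold lower at 45.7 and 25.4 CPM (−0.85), with a median of −0.04, or −0.17 below the Krt6a limit and 0.14 above it. Of 12 PI3K pathway genes, Pik3r1, a regulatory subunit, was 1.5-fold higher at 47.2 and 73.0 CPM (0.63), with a median of 0.02.

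**Figure D5:**
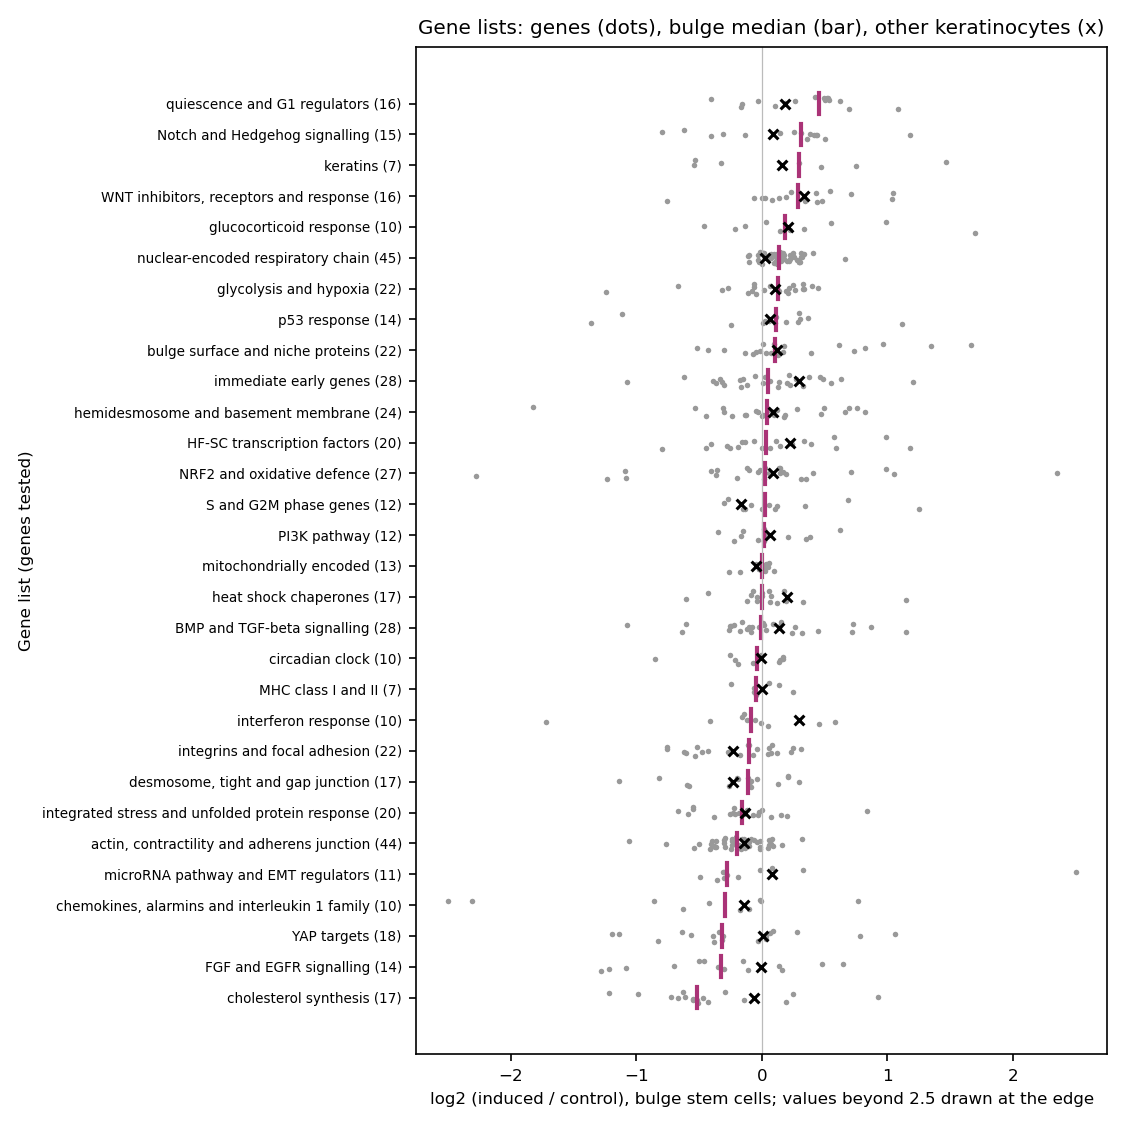
Log2 ratio of induced over control in bulge stem cells for the tested genes of 30 lists (dots; number tested in brackets), with the list median in bulge cells (bar) and in other keratinocytes (cross). Cholesterol synthesis has the lowest bulge median, at −0.52, and quiescence and G1 regulators the highest, at 0.46; Vim (3.48) and Cxcl1 (−2.67) are drawn at the edges.

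Stress genes were compared because dissociation can induce them. Of 28 immediate early genes, Socs3 and Irf1 were 1.5-fold higher and Egr3 and Nr4a2 lower, with a median of 0.05 beside 0.30 in the other keratinocytes. Nr4a2, an orphan nuclear receptor, was at 250 CPM in the control and 119 CPM in the induced library (−1.08). The list median was −0.21 below the Krt6a limit and 0.27 above it. Of 17 chaperones, Cryab was 1.5-fold higher and Dnajb4 lower, with a median of 0.01. Hspb1 was at 12443 and 9254 CPM (−0.43) and Hspa1a at 701 and 883 CPM (0.33). Over all bulge cells both stress lists were thus centred near 0. The part of dissociation stress in the other results was not tested.

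Of 20 integrated stress and unfolded protein response genes, Nupr1 was 1.5-fold higher, Asns, asparagine synthetase, was lower, and 16 lay below 0, with a median of −0.16. The same 16 lay below the median of all genes, 0.05. Of 14 p53 response genes, Trp53inp1 was 1.5-fold higher at 34.7 and 75.6 CPM (1.12), Gadd45a at 114 and 52.4 CPM (−1.12) and Plk2 were lower, and the median was 0.11. Of 27 NRF2 and oxidative defence genes, 4 were 1.5-fold higher (Keap1, Aldh3a1, Mt1 and Mt2) and 4 lower (Hmox1, Srxn1, Gstp1 and Mgst1), with a median of 0.03. Mt1, a metal-binding protein also induced by glucocorticoids, was at 2418 CPM in the control and 5016 CPM in the induced library (1.05, 1.02 to 1.09), against 0.13 in the other keratinocytes. Mt2 was at 811 and 1614 CPM (0.99, 0.93 to 1.06), against 0.05. Both metallothioneins were further apart above the Krt6a limit, at 1.59 and 1.52, than below it, at 0.56 and 0.51. Hmox1, haem oxygenase, was at 48.9 and 20.8 CPM (−1.23), with 44% of its control UMIs in 5 cells. Of 10 glucocorticoid response genes, Tsc22d3 and Mt2 were 1.5-fold higher, with a median of 0.19. That median was −0.06 over 9 genes below the Krt6a limit and 0.34 over 8 genes above it. The genes were few and not the same on the 2 sides, and a dependence on Krt6a level was not tested. Tsc22d3 was at 6.37 and 21.0 CPM (1.70, 1.03 to 2.47), from 22 and 87 UMIs, and Sgk1 at 746 and 644 CPM (−0.21).

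The list of chemokines, alarmins and the interleukin 1 family had 10 tested genes, and it also holds genes outside these families, such as Plaur and Ptgs2. Of the 10, 4 were 1.5-fold lower (Cxcl1, Ccl7, Plaur and Ptgs2) and Cxcl14 was higher. The list median was −0.30 over all bulge cells, −0.07 below the Krt6a limit and −0.53 above it. Cxcl14 was at 3289 CPM in the control and 5592 CPM in the induced library (0.77, 0.73 to 0.80), and at 0.75 on both sides of the Krt6a limit. Cxcl1 was at 74.7 and 11.6 CPM, but 5 cells held 79% and 81% of its UMIs. Ccl2, likewise held by few cells, was at 70.6 and 70.3 CPM. Of 10 interferon response genes, Ifi202b was 1.5-fold lower at 123 and 37.2 CPM (−1.72), and Ifi27 was at 76.4 and 115 CPM (0.58), with a median of −0.08. None of 7 MHC genes was past 1.5-fold, with B2m at 650 and 547 CPM (−0.25) and a median of −0.05.

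Of 7 tested keratins outside the rule, Krt80 was 1.5-fold higher at 74.7 and 126 CPM (0.75), and Krt16, a keratin of stressed epithelium, was at 1112 and 767 CPM (−0.54). Krt25 was also past 1.5-fold, but at least 96% of its UMIs lay in 5 cells in each library. Of 11 microRNA pathway and epithelial-mesenchymal genes, Vim was 1.5-fold higher, with 89% of its 193 induced UMIs in 5 cells, and the median was −0.28, or 0.04 below the Krt6a limit and −0.34 above it. The list included Ago2, which loads microRNAs, at 69.7 and 54.6 CPM (−0.35, −0.62 to −0.09), and Esrp1, an epithelial splicing factor, at 55.0 and 69.1 CPM (0.33). The miR-205 host transcript 4631405K08Rik, which reports the endogenous locus and not the transgene, was at 226 and 160 CPM (−0.49, −0.64 to −0.34), against 0.17 in the other keratinocytes.

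Bulge cells differed between the mice at more genes than the pooled other keratinocytes did. Of the same 5964 genes, 202 (3.39%) were at least 1.5-fold higher and 51 (0.855%) at least 1.5-fold lower in the other induced keratinocytes. The other keratinocytes held more cells and more UMIs, and counting noise adds to the bulge counts, so the numbers are not on equal footing. The other keratinocytes also held the 95 control and 230 induced cells that missed the bulge rule by Krt75, Sncg and Fgf18 alone. The part of those cells in the differences between the populations was not tested. Of the genes higher in bulge cells 76 were higher in both populations, which is 22.5% of the bulge genes and 37.6% of those of the other keratinocytes. Of the genes lower in bulge cells 35 were lower in both, which is 15.98% and 68.6%. At 158 of 5962 genes (2.65%) the bulge log2 ratio was at least 1.5-fold above that of the other keratinocytes, and at 258 (4.33%) at least 1.5-fold below it. Timp3 was among the former, at 1.67 against −0.07, and Thbs1 among the latter, at −1.82 against −0.48. In the Krt75 set Timp3 was at 0.97 and Thbs1 at −2.12, so neither was particular to the chosen cells.

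RNA of other cell types was low in the bulge cells but not equal between the libraries. The 12 immune markers summed to 80 UMIs in the control and 151 in the induced library, with 1 and 5 cells holding 3 or more. The 7 endothelial markers summed to 30 and 11 UMIs, and the 8 melanocyte and Schwann markers to 3 and 31. The 10 fibroblast markers summed to 713 and 668 CPM, nearly all from Col6a1, Col6a2 and Sparc, with Pdgfra and Mfap5 at 0 in both libraries. Dermal papilla markers were at 72.9 and 71.3 CPM, with Corin at 0 in both, and smooth muscle and pericyte markers at 13.9 and 8.21 CPM. Stromal and immune RNA therefore took a small part of these cells.

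Markers of neighbouring epithelium differed more. The 9 sebaceous markers summed to 155 CPM in the control and 99.8 CPM in the induced library, and the 9 suprabasal markers to 2623 and 3459 CPM. The 7 interfollicular basal markers summed to 3010 and 1132 CPM, a sum carried mainly by Thbs1. The 8 hair germ markers summed to 3459 and 2902 CPM, mostly Fst, with Fgf5 and Dkk4 at 0 in both libraries. Their part in the differences above was not tested.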

How the data were processed

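Skin cells of 1 control and 1 miR-205 inducible mouse were profiled by 10x Genomics single-cell RNA-seq. Per the file headers the authors made the deposited UMI counts with Cell Ranger 3.0.1, and the submitters' processing notes name mm10; the counts are raw UMI counts per gene and barcode, with replicates not pooled because each group had 1 library. From 8809 barcodes, 7564 with 201 to 4999 genes and under 10% mitochondrial UMIs were kept, doublets included. Counts were summed over bulge cells in each library, scaled to CPM, and compared as log2 ratios with a pseudocount of 0.5 UMIs, among genes with at least 100 UMIs. Exact conditional binomial 95% intervals of ratios and Clopper-Pearson intervals of shares cover counting error only. Comparison sets were other cells past the Krt5 and Krt14 limit, those with 3 or more UMIs of Krt75, Sncg and Fgf18, and an Lgr5 set. Cells of the Lgr5 set had 3 or more UMIs of Lgr5, no Krt24, and fewer Cd34 UMIs than the bulge rule requires.

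Genes were named by rule: the HF-SC factors and surface proteins, the 6 study targets, the 12 highest and 12 lowest log2 ratios with at least 200 UMIs and under 50% of them in 5 cells, the 20 highest over other keratinocytes, the 10 highest Fano factors, and the 2 highest and 2 lowest of each other list. Genes that make up a count of 5 or fewer past a threshold were named after their values were seen. Some genes that the rule takes are not reported here. The members, the 30 gene lists and the 10 marker lists were chosen with earlier results of these data known. Fano factors and correlations used cells thinned to 5000 UMIs. The steps were tested on simulated counts that held counting noise only. Variation between cells or mice was not simulated, so that test could not check the intervals against it. Python 3.11.15, numpy 2.4.6, scipy 1.17.1, pandas 2.3.3, scanpy 1.11.5 (Scrublet) and matplotlib 3.10.9 were used. Alternatives changed the cell filters, the rule for bulge cells, the scaling, the pseudocount, the UMI minimum and the Krt6a range.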

Additional observations from a re-analysis of the deposited data

Results flagged for a closer look

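Of the genes past 1.5-fold in both populations, 5 lay on opposite sides in bulge cells and in the other keratinocytes; they were picked for that, and the differences, each with a 95% interval for counting error, were not tested across mice. Trp53i11, induced by p53, was at 22.9 CPM in control and 41.6 CPM in induced bulge cells, against 46.3 and 16.8 CPM in the other keratinocytes, a difference of log2 ratios of 2.32 (1.91 to 2.73). Mgst1, a microsomal glutathione transferase, was at 69.5 and 14.3 CPM in bulge cells against 141 and 318 CPM in the others, a difference of −3.45 (−3.86 to −3.04), and 47% of its 59 induced bulge UMIs lay in 5 cells. Beside it, the sebaceous markers summed in the other keratinocytes to 574 CPM in the control and 1077 CPM in the induced library, and their part in the Mgst1 value was not tested.

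The other 3 were higher in control bulge cells. Wnt11, a WNT ligand, was at 48.6 and 28.7 CPM in bulge cells and at 11.3 and 17.4 CPM in the others (difference −1.39). Cck, a peptide hormone, was at 79.3 and 36.0 CPM in bulge cells and at 3.31 and 8.54 CPM in the others (−2.501). Hoxc13, a homeobox factor of hair keratin genes, was at 77.6 and 43.7 CPM in bulge cells and at 6.54 and 9.95 CPM in the others (−1.43). Among the others, 95 of 2844 control and 230 of 2265 induced cells missed the bulge rule by Krt75, Sncg and Fgf18 alone. The part of these cells in the values of the 3 genes was not tested.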

How the results depend on the processing

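No paired analysis was possible because each group had 1 library. Of 195 named genes, 89 lay past 1.5-fold, and 39 of these did so under every alternative run. The main counts were 338 genes higher and 219 lower. With mitochondrial UMIs under 5% (101 control and 100 induced cells) 115 genes were higher, 290 and 71 stood 2-fold above and below the other keratinocytes, the shares of kept cells were 4.94% and 5.42%, and 40.5% of the genes past the threshold were higher. There the median of all genes was −0.00844, of Notch and Hedgehog genes 0.542, of the integrated stress response 0.0147 and of the respiratory chain 0.0691, Krt25 was at −1.16 and Sprr1a at −0.541. Requiring 6 UMIs of Cd34 and Krt24 gave shares of 5.82% and 8.88% and an S and G2M median of −0.157. Requiring both genes gave 5.08% and 6.84%, medians of 0.456 for Notch and Hedgehog genes, −0.645 for cholesterol synthesis and 0.191 for the respiratory chain, and Sprr1a at −0.0573. Thinning before the rule gave 7.35% and 10.4%, and thinning after it 204 genes higher. A minimum of 20 UMIs gave 1131 genes higher and 578 lower, and one of 400 UMIs gave 67 and 74, with 215 and 44 above and below the other keratinocytes. A median-of-ratios size factor gave a median of all genes of −0.00129 and of the respiratory chain of 0.0923.

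Leaving out every cell with 3 UMIs of immune, endothelial, melanocyte, Schwann or fibroblast markers kept 73 and 127 cells, since bulge cells hold Col6a1, Col6a2 and Sparc. It gave 110 genes higher and 89 lower and medians of −0.000296 for all genes, −0.0459 for quiescence and G1, −0.145 for chaperones, 0.102 for chemokines, 0.0331 for the respiratory chain and 0.192 for the clock. Among genes past 1.5-fold, log2 ratios changed sign there for Cxcl1 (0.904), Dhcr7 (−0.214), Epgn (0.670), Fgfr3 (−0.196), Gli2 (0.0358), Igfbp5 (−0.812), Insig1 (0.101), Nr4a2 (0.153), Nupr1 (−1.37), Pdlim7 (0.209) and Txnip (−0.0658). A further 28 named genes short of 1.5-fold also changed sign there, among them Piezo1 at 0.068, Sfrp1 at −0.019, Hopx at −0.056 and Foxc1 at −0.044. With those 3 genes not counted, a version chosen after seeing the data, 340 and 406 cells stayed, with 326 genes higher and 235 lower and a sign change in 1 named gene, Ccl2, from −0.01 to 0.028.

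The Krt6a ranges were also chosen after seeing the data. Below 0.2%, 181 genes were higher and 120 lower, with medians of −0.0487 for actin genes, −0.206 for immediate early genes, −0.183 for chaperones, −0.289 for cholesterol synthesis and 0.0966 for the respiratory chain, and Krt25 at −0.745. At 0.2% or more, 166 were higher, 49.8% of those past the threshold, with medians of −0.00394 for all genes, 0.589 for quiescence and G1, 0.516 for Notch and Hedgehog genes, 0.132 for YAP targets, 0.271 for immediate early genes, 0.128 for chaperones, 0.00178 for the integrated stress response and 0.0315 for the respiratory chain, and Aspn at −0.303. Except where cells or genes were fewer by construction, the cause of these shifts was not tested. Genes near 100 UMIs and those held by a few cells are the least certain, and 1 mouse per group limits every comparison.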

Other observations

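The 2 sides of the Krt6a limit also differed within each mouse, and since the cells were divided by Krt6a these values are a description. Krt15 was at 10394 CPM below the limit and 7318 CPM above it in the control, and at 11642 and 9065 CPM in the induced library. Thbs1 was at 1400 CPM below and 3530 CPM above the limit in the control, and at 349 and 1340 CPM in the induced library. Actg1 was at 8131 and 15566 CPM in the control, and at 5323 and 10280 CPM in the induced library. In both mice the cells with less Krt6a thus held more Krt15 and less Thbs1 and Actg1. Mt1 had another order in each mouse, at 3056 CPM below and 1924 CPM above the limit in the control and at 4520 and 5795 CPM in the induced library.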
